A study of Canis lupus familiaris with 16 samples.

Results

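The transcripts of 7 marker genes of Schwann cells and the neural crest, *S100B*, *SOX10*, *ERBB3*, *GAP43*, *NES*, *NGFR* and *CDH19*, were examined in 16 canine soft tissue sarcomas. The 7 genes were chosen as markers, with earlier results of these data known, and all 7 were among the 41818 genes of the deposited count table. Reads came from total RNA of formalin-fixed, paraffin-embedded (FFPE) tumor sections from dogs of many breeds, and no treatment was given in the labels. The labels carry a molecular identity and a histological diagnosis for each tumor. By molecular identity, 4 tumors were fibrosarcomas (FS, dogs aged 9 to 13 years), 6 were peripheral nerve sheath tumors (PNST, 8 to 13 years) and 6 were perivascular wall tumors (PWT, 2 to 14 years). By histology there were 5 FS, 5 PNST and 6 PWT, because S1-10 was a PWT and S2-08 an FS under the microscope. S1-04 and S1-05 carry identical label entries, may come from 1 dog, and were counted as 2 tumors. The molecular identities were set by the study partly from these same counts, so that tests between them are not independent of the grouping. Whole sections of tumor were used, so a lower level can come from fewer cells of a type or from less RNA per cell, and these cannot be told apart here.

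Schwann cells wrap the axons of peripheral nerves and derive from the neural crest, a migratory population of the embryo that also gives rise to melanocytes, peripheral neurons and much connective tissue of the head. *SOX10* encodes the transcription factor that keeps cells in the Schwann lineage from the crest onward, and *ERBB3* encodes the receptor through which axonal neuregulin sustains that lineage. *NGFR* encodes the low-affinity neurotrophin receptor p75 and *CDH19* a cadherin of Schwann cell precursors. *S100B* encodes a calcium-binding protein that pathologists stain for in nerve sheath tumors, *GAP43* a membrane protein of growth cones and non-myelinating Schwann cells, and *NES* the intermediate filament nestin of progenitor cells. Each of these genes is also used by other cells, for example *ERBB3* by epithelial cells and *NES* by muscle precursors and vessel walls.

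Between 507728 reads (S1-12) and 4311876 reads (S1-03) were counted on genes in each tumor, and many of the markers were near the limit of detection. Levels are given in CPM, that is, reads of a gene scaled to library size, with the size adjusted by TMM. *NES* had 1451 reads over the 16 tumors and reached 10 reads in 16 of them, *GAP43* had 1409 reads and reached 10 in 15, and *ERBB3* had 672 and reached 10 in 14. *S100B* had 414 reads and reached 10 in 5 tumors. *SOX10* had 113 reads, reached 10 in 4 tumors and had 3 or fewer in 6 tumors. *NGFR* had 148 reads, of which 112 were from S1-11, the only tumor with 10 or more. *CDH19* had 19 reads, at most 5 in any tumor, and none in 5 tumors. *NGFR* and *CDH19* therefore had too few counts to be tested, while 5 of the 7 genes passed the minimum of 10 reads in at least 4 tumors. *SOX10* passed it with no tumor to spare, and *S100B* with 1.

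**Figure D1:**
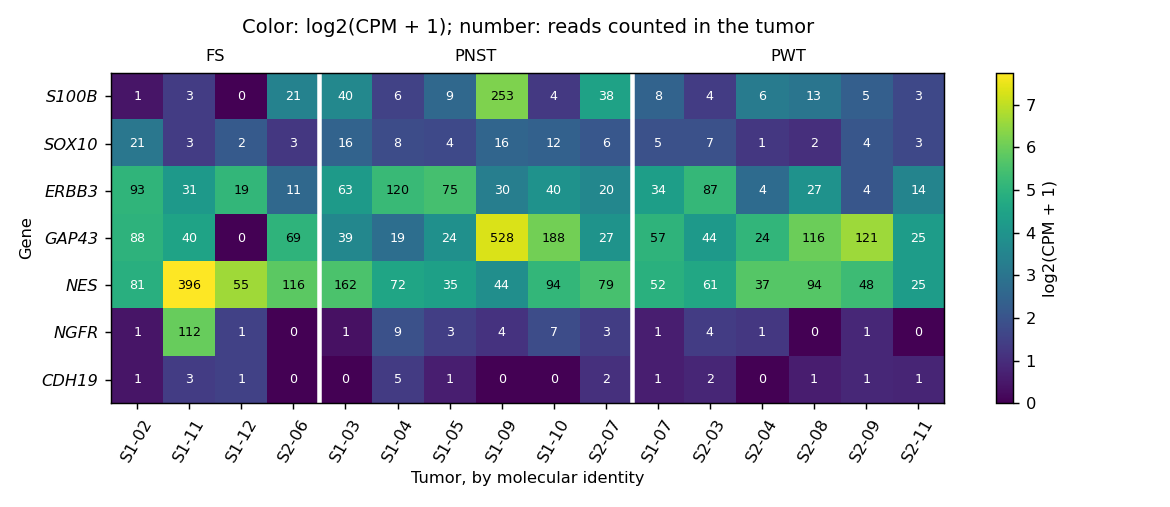
Heat map of the 7 genes (rows) in the 16 tumors (columns, ordered by molecular identity), with the color showing log2(CPM + 1) and the number in each cell the reads counted. The reads of *NGFR* lie almost wholly in S1-11 (112 of 148), and the *CDH19* row holds no value above 5.

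Of the 5 markers tested, *NES* alone passed the thresholds for a difference between tumor types, and it was higher in FS, not in PNST. With 5 markers, 1 call is too few to set against the share of all genes called. Differences were tested with edgeR's quasi-likelihood test over 15408 genes, with Benjamini-Hochberg adjustment over all of them, and a gene was called when its adjusted p-value was under 0.05 and its absolute log2 fold change above 1. By molecular identity, 1 of 5 markers was called in FS against both other types pooled, and this was also the 1 marker under an unadjusted p-value of 0.05, beside 9.46% of all genes called and 25.4% under that p-value. In PNST against the rest, 0 of 5 markers were called, 2 had an unadjusted p-value under 0.05, and 0% of all genes were called, although 15.7% of all genes lay under that p-value. In PWT against the rest, 0 of 5 were called and 0 had an unadjusted p-value under 0.05, beside 2.12% of all genes called (1.41% higher and 0.714% lower) and 22.4% under that p-value. By histology, 1 of 5 was called in FS, beside 1.33% of all genes (1.24% higher and 0.0909% lower). In PNST by histology 0 of 5 were called and 1 lay under an unadjusted p-value of 0.05, beside 0% and 7.96% of all genes. In PWT by histology these counts were 0 and 1 of 5, beside 0% and 14.5%. Between pairs of types, 1 of 5 was called in PNST against FS and 2 lay under an unadjusted p-value of 0.05, beside 7.13% of all genes called (2.98% higher and 4.15% lower) and 23.2% under that p-value. In PNST against PWT, 0 of 5 were called and 1 lay under it, beside 0.169% called (0.0714% higher and 0.0974% lower) and 19.6%. In FS against PWT, 1 of 5 was called and 1 lay under it, beside 11.2% called (6.15% higher and 5.05% lower) and 29.0%. The Wald test of DESeq2 called as many markers as edgeR in each of these 9 comparisons. It called 1.54% of all genes in PNST against the rest, 0.0685% by histology and 3.38% in PNST against PWT. The median log2 fold change of the 5 markers in PNST against the rest was 0.36, beside -0.06 over all genes tested. Since edgeR called no gene at all in PNST against the rest, the count of 0 markers there says nothing particular about the markers. A marker not called is not thereby equal between the types. *S100B* in PNST against the rest had an unadjusted edgeR p of 0.00702 by molecular identity and 0.00137 by histology.

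**Figure D2:**
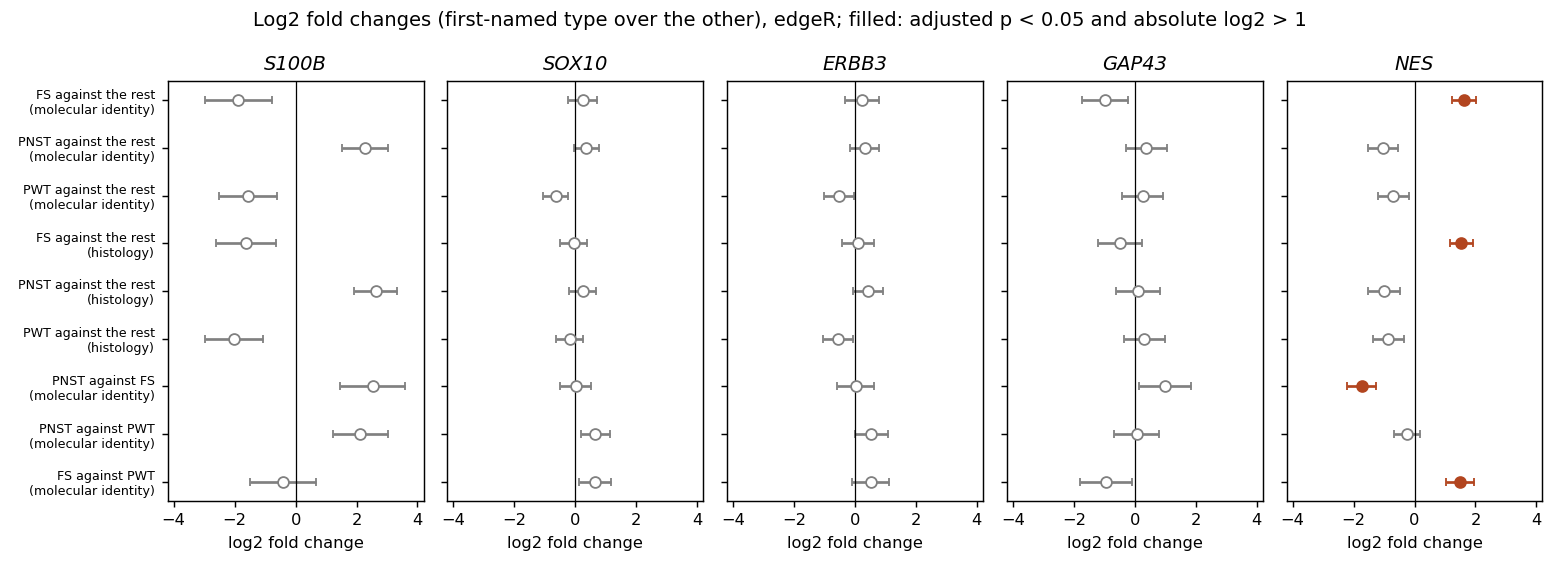
Log2 fold changes (x axis) of the 5 tested markers in 9 comparisons (rows), with the first-named type over the other and bars of 1 standard error. Filled points mark calls, and the 4 calls all belong to *NES* and all have higher levels in FS.

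*S100B* is the marker most used for nerve sheath tumors, and its highest levels lay in PNST, but in only some of them. In the 6 PNST by molecular identity, *S100B* stood at 75.5 CPM in S1-09, 21.0 in S2-07, 11.3 in S1-03, 5.17 in S1-05, 1.86 in S1-04 and 1.44 in S1-10. In the 4 FS it stood at 9.76 CPM in S2-06, 1.62 in S1-11, 0.35 in S1-02 and 0 in S1-12, where 3 reads would be 5.42 CPM. In the 6 PWT it ranged from 1.58 (S2-03) to 8.26 CPM (S2-04), with a median of 4.27. Thus 3 of 6 PNST lay above all other tumors, and the other 3 lay inside the range of FS and PWT. Without TMM scaling, S1-03 (9.28 CPM) lay below the FS S2-06 (12.2 CPM), so S1-09 and S2-07 alone stood above the rest on both scales. The 95% Poisson intervals of the scaled levels of S1-03 and S2-06 overlapped (8.04 to 15.3 and 6.04 to 14.9 CPM). The runs of S1-03 differed widely, at 6.21, 5.22 and 23.0 CPM before TMM scaling (8, 11 and 21 reads). S1-04 and S1-10 ranked 11 and 14 of 16, with 6 and 4 reads. The tumor S1-09 alone gave 253 of the 414 reads of the gene.

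The mean *S100B* level was 19.4 ± 28.4 CPM (SD, n = 6) in PNST, 2.93 ± 4.60 (n = 4) in FS and 4.60 ± 2.62 (n = 6) in PWT. The log2 fold change of PNST over the rest was 2.28 (SE 0.75, edgeR adjusted p = 0.205), so that it was not called. By histology, which places S1-10 with the PWT, the log2 fold change was 2.63 (SE 0.70, edgeR adjusted p = 0.617), and *S100B* ranked 25 of 15408 genes by p-value. Without S1-09, the values fell to 1.02 (SE 0.69, edgeR adjusted p = 0.569) by molecular identity and 1.39 (SE 0.68, edgeR adjusted p = 0.871) by histology. Against FS alone, PNST were higher by 2.53 on the log2 scale (SE 1.06, edgeR adjusted p = 0.157), and against PWT alone by 2.13 (SE 0.90, edgeR adjusted p = 0.205), also not called. In FS against PWT, the log2 fold change was -0.41 (SE 1.09, edgeR adjusted p = 0.844).

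Among the other S100 proteins, a family of small calcium-binding proteins, 11 genes were in the table and 7 could be tested. With edgeR, none of the 7 was called in PNST or in FS against the rest, beside 0% and 9.46% of all genes. The unadjusted p-value was under 0.05 for 0 and 1 of them, beside 15.7% and 25.4% of all genes. In FS against the rest, DESeq2 called *S100A9* (log2 fold change 3.23, adjusted p = 0.00756), and edgeR called *S100A8* without the 5 tumors that held keratinocyte transcripts, S1-02, S1-04, S1-05, S1-12 and S2-03 (2.30, adjusted p = 0.0359), both genes of myeloid cells and stressed epidermis. The medians of their log2 fold changes were -0.04 in PNST and 0.03 in FS, beside -0.06 and 0.00 over all genes.

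**Figure D3:**
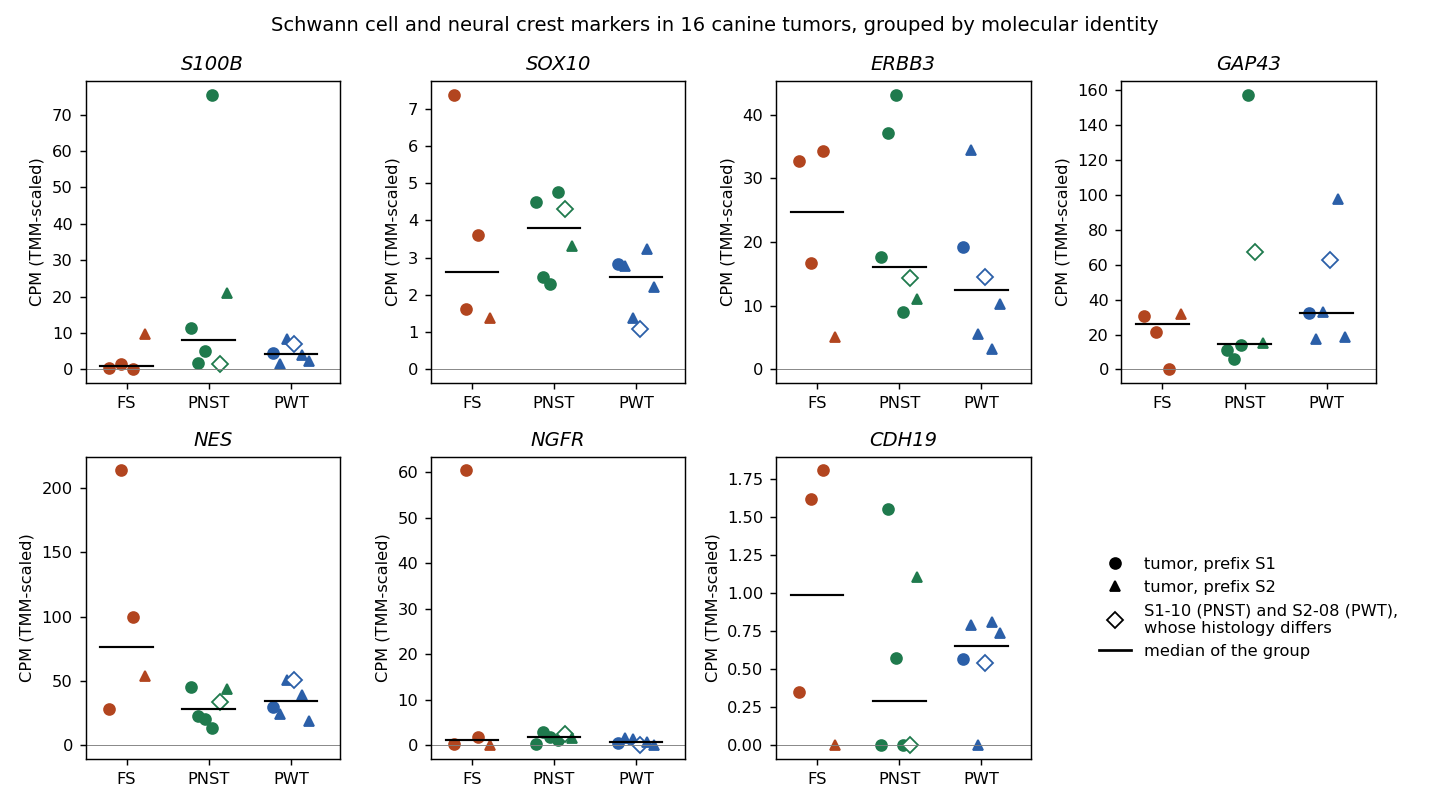
Level of each marker in CPM (y axis, linear, a separate scale for each gene) in the 16 tumors grouped by molecular identity, with the median of each group as a line. The single high tumors are S1-09 for *S100B* (75.5 CPM) and *GAP43* (157 CPM) and S1-11 for *NGFR* (60.4 CPM) and *NES* (214 CPM).

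*SOX10*, the lineage factor, was scarce in every tumor. Its levels ran from 2.30 (S1-05) to 4.77 CPM (S1-09) in PNST, with a median of 3.81, from 1.39 (S2-06) to 7.38 CPM (S1-02) in FS, with a median of 2.61, and from 1.08 (S2-08) to 3.23 CPM (S2-09) in PWT, with a median of 2.49. The highest tumor of all was the FS S1-02, with 21 reads and a 95% Poisson interval of 4.57 to 11.3 CPM. The groups overlapped, although 4 of 6 PNST lay above every PWT by molecular identity, and 2 of 5 by histology. The lowest of these 4, S2-07, had 6 reads (3.32 CPM) and the highest PWT, S2-09, had 4 (3.23 CPM). Their 95% Poisson intervals overlapped (1.22 to 7.22 and 0.88 to 8.27 CPM). The means were 3.61 ± 1.07 CPM (SD, n = 6) in PNST, 3.50 ± 2.77 (n = 4) in FS and 2.25 ± 0.86 (n = 6) in PWT. The log2 fold change was 0.36 (SE 0.41, edgeR adjusted p = 0.684) in PNST against the rest, 0.02 (SE 0.51, edgeR adjusted p = 0.989) in PNST against FS and 0.66 (SE 0.47, edgeR adjusted p = 0.446) in PNST against PWT. A difference between the types was not detectable at this depth.

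Other transcription factors of the neural crest were listed as 16 genes, of which 8 could be tested. *FOXD3*, which marks the early crest, had 1 read in all, in the PWT S1-07. *MITF*, the factor of the melanocyte lineage that other cells also use, was the only member of the list called. By molecular identity its levels were 46.8 ± 24.3 CPM (SD, n = 4) in FS, 177 ± 30.3 (n = 6) in PNST and 212 ± 89.8 (n = 6) in PWT. In that grouping no FS (highest 68.5) reached the lowest PWT (109.5) or PNST (129). In FS, *MITF* fell by 2.02 on the log2 scale (SE 0.36, edgeR adjusted p = 0.00188) against the rest. By histology the FS stood at 87.6 ± 93.6 CPM (n = 5), with S2-08 highest at 250.8 inside the range of PWT, and *MITF* was not called.

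*ERBB3* levels overlapped between the tumor types and were highest in the 5 tumors that held keratinocyte transcripts. They stood at 43.1 CPM in S1-05, 37.2 in S1-04, 34.4 in S2-03, 34.3 in S1-12 and 32.7 in S1-02, and at 3.23 (S2-09) to 19.2 CPM (S1-07) in the other 11 tumors. The 5 high tumors were 2 PNST, 2 FS and 1 PWT. The means were 22.1 ± 14.4 CPM (SD, n = 6) in PNST, 22.2 ± 13.9 (n = 4) in FS and 14.5 ± 11.3 (n = 6) in PWT. In PNST against the rest, the log2 fold change was 0.31 (SE 0.48, edgeR adjusted p = 0.779), and the value of PNST against FS was 0.01 (SE 0.60, edgeR adjusted p = 0.993).

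The same 5 tumors held nearly all the keratinocyte transcripts in the series. The summed level of 6 keratinocyte markers (*KRT5*, *KRT14*, *KRT1*, *KRT10*, *TP63* and *DSG1*, genes of the epidermis) was 558 to 987 CPM in them, with 6 of 6 markers detected, and 4.13 to 14.6 CPM in the other 11, with 1 to 5 detected. The ranges of *ERBB3* in the 5 tumors (32.7 to 43.1 CPM) and in the other 11 (3.23 to 19.2 CPM) did not overlap either. The genes whose levels were most like those of *ERBB3* over the 16 tumors were *DMKN* (Spearman's rho 0.893), *LPAR5* (0.885) and *TRIM29* (0.861), and *DMKN* and *TRIM29* are known as genes of the epidermis. The summed markers of melanocytes, a further neural crest lineage, stood at 19.0 to 37.4 CPM in the 5 tumors and 6.65 to 19.4 in the others. Only 1 of the 5 melanocyte markers passed the count filter. In the 5 tumors 1 (S1-12, at 32.5 CPM) to 4 of these markers were detected, and in the others 1 to 3. Without the 5 tumors, *ERBB3* had a log2 fold change of 0.23 (SE 0.45, edgeR adjusted p = 0.859) in PNST against the rest and of -0.08 (SE 0.56, edgeR adjusted p = 0.956) in FS against the rest. These 5 tumors were set apart after their values were seen, and the part of keratinocytes and melanocytes in the *ERBB3* level was not tested.

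**Figure D4:**
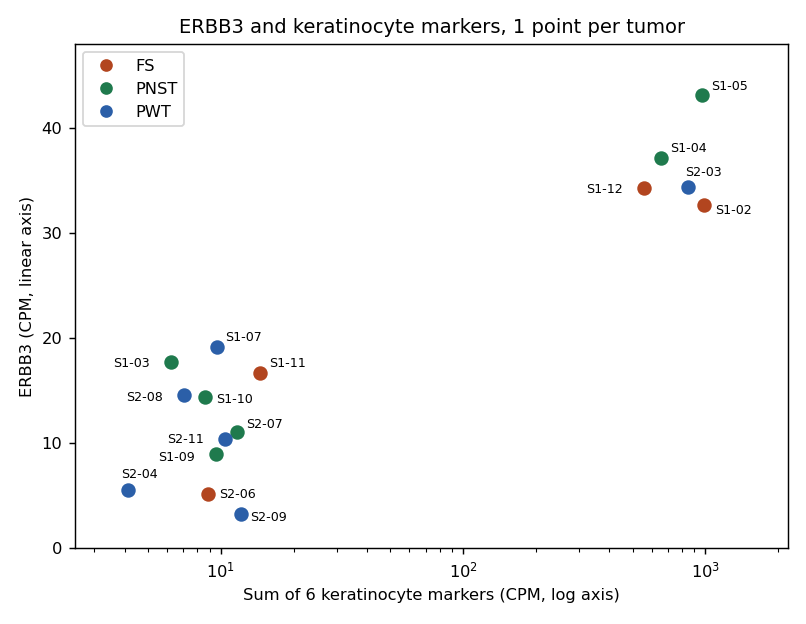
*ERBB3* level (y axis, CPM, linear) against the summed level of 6 keratinocyte markers (x axis, CPM, log axis), with 1 labelled point for each of the 16 tumors colored by molecular identity. The 5 tumors at 558 to 987 CPM of keratinocyte markers, of all 3 types, are the 5 with the highest *ERBB3*.

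Of 10 genes of neuregulin and ERBB signaling, 7 could be tested. *ERBB2*, which encodes the co-receptor of ERBB3, was higher in FS, at 83.6 ± 51.8 CPM (SD, n = 4) against 38.5 ± 7.52 (n = 6) in PNST and 26.6 ± 13.7 (n = 6) in PWT. Its log2 fold change in FS against the rest was 1.36 (SE 0.33, edgeR adjusted p = 0.0131), and it was also called by histology (1.32, SE 0.31, edgeR adjusted p = 0.0394), though not without S1-11 (adjusted p = 0.0934) or without the 5 tumors with keratinocyte transcripts (adjusted p = 0.165). *ADAM17*, a protease that sheds neuregulins, fell by 1.31 on the log2 scale in FS (SE 0.28, edgeR adjusted p = 0.00574). *BACE1*, which also cleaves neuregulin, was called in FS against PWT alone (1.21, SE 0.26, edgeR adjusted p = 0.00636). The ligand gene *NRG1* stood at 9.01 ± 4.36 CPM (n = 4) in FS, 3.16 ± 3.35 (n = 6) in PNST and 3.63 ± 8.49 (n = 6) in PWT and was not called. In PNST against the rest, 0 of the 7 genes were called and 1 had an unadjusted edgeR p-value under 0.05, beside 0% and 15.7% of all genes.

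*GAP43* was detected in 15 of 16 tumors and spread more widely within the types than between them. In PNST it stood at 157 CPM in S1-09, 67.5 in S1-10, 14.9 in S2-07, 13.8 in S1-05, 11.0 in S1-03 and 5.89 in S1-04. In FS it stood at 32.1 CPM in S2-06, 30.9 in S1-02, 21.6 in S1-11 and 0 in S1-12, where 3 reads would be 5.42 CPM. In PWT it ranged from 17.4 (S2-03) to 97.7 CPM (S2-09), with a median of 32.6. S1-09 was thus the highest tumor for both *GAP43* and *S100B*, while the median of PNST, 14.4 CPM, was the lowest of the 3 types. The log2 fold change was 0.37 (SE 0.67, edgeR adjusted p = 0.810) in PNST against the rest. Without S1-09 it turned to -0.61, and by histology, where the value with all tumors was 0.11 (SE 0.71, edgeR adjusted p = 0.973), it turned to -1.74, with neither value called. In FS against the rest, *GAP43* had a log2 fold change of -0.98 (SE 0.77, edgeR adjusted p = 0.462).

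Genes of the growth cone beside *GAP43* were called in FS in both directions. Of 8 listed, 6 were tested, and 1 was higher and 3 lower in FS against the rest, where 5.78% of all genes were called higher and 3.68% lower. *BASP1*, a membrane protein of growth cones related in function to GAP43, stood at 29.2 ± 13.5 CPM (SD, n = 4) in FS, 5.45 ± 3.07 (n = 6) in PNST and 4.93 ± 2.87 (n = 6) in PWT. By molecular identity every FS (lowest 11.1) lay above every PNST (highest 10.2) and PWT (highest 8.26). By histology, which places S2-08 (at most 8.26 CPM) with the FS, this separation did not hold. How many of all genes separate the types in this way was not counted, here or for *MITF* and *SORT1*. Its log2 fold change in FS was 2.49 (SE 0.42, edgeR adjusted p = 0.00122). The neuronal tubulin gene *TUBB3* fell by 2.46 in FS (SE 0.66, edgeR adjusted p = 0.0230) and *DPYSL3*, a gene of axon guidance, by 1.59 (SE 0.47, edgeR adjusted p = 0.0362), both on the log2 scale. Without the 5 tumors with keratinocyte transcripts, S1-11 and S2-06 were the only FS, and neither *TUBB3* (edgeR adjusted p = 0.102) nor *DPYSL3* (0.221) was called. Without S1-11, *DPYSL3* was not called (0.0747). *STMN2*, a microtubule regulator of growing neurites, had 0 reads in the 4 FS and a mean of 106 ± 176 CPM (n = 6) in PNST, at least 262-fold higher than 3 reads over the FS together would give. Its PNST levels ran from 1.24 to 451 CPM, and its call in FS against the rest (edgeR adjusted p = 0.0341) was lost without S1-11 (0.0842) and without the 5 tumors (0.0889).

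*NES* was the one marker past the threshold, and its calls did not hold under every removal of a tumor. Its levels in FS were 214 CPM in S1-11, 99.3 in S1-12, 53.9 in S2-06 and 28.4 in S1-02. In PNST they ranged from 13.1 (S1-09) to 45.6 CPM (S1-03), with a median of 28.0, and in PWT from 18.5 (S2-11) to 50.9 CPM (S2-04), with a median of 34.0. The first 3 of these FS lay above all PNST and PWT, S2-06 by little, and S1-02 lay in the middle of them. The means were 98.8 ± 81.9 CPM (SD, n = 4) in FS, 29.8 ± 13.3 (n = 6) in PNST and 35.4 ± 13.7 (n = 6) in PWT. *NES* was higher in FS than in the rest by 1.61 on the log2 scale (SE 0.39, edgeR adjusted p = 0.0123), and by histology by 1.54 (SE 0.38, edgeR adjusted p = 0.0494). PNST were lower than FS by a log2 fold change of -1.74 (SE 0.46, edgeR adjusted p = 0.0300). FS were higher than PWT by 1.49 (SE 0.47, edgeR adjusted p = 0.0436). PNST and PWT differed by -0.24 (SE 0.43, edgeR adjusted p = 0.782).

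Without S1-11, *NES* was not called in any of these comparisons. When each of the 16 tumors was left out in turn, the call in FS against the rest by molecular identity was lost for S1-11 alone, but the call by histology was lost in 14 of 16 cases, that in FS against PWT in 8 and that in PNST against FS in 5. The log2 fold change in FS against the rest was then 0.88 (SE 0.39, edgeR adjusted p = 0.196) by molecular identity and 0.90 (SE 0.34, edgeR adjusted p = 0.302) by histology. S1-11 also held the highest summed level of 6 skeletal muscle markers, 779 CPM, followed by the PWT S1-07 with 400 and S2-09 with 102, while the other 13 tumors had 2.22 to 7.18. *NES* stood at 29.3 CPM in S1-07 and 38.7 in S2-09, inside the range of the other PWT. The 6 fibroblast markers also summed highest in S1-11, at 96597 CPM, with 8806 to 34728 in the other 15 tumors. The part of muscle and fibroblasts in the *NES* level of S1-11 was not tested. The genes most like *NES* over the 16 tumors were *RBM22* (Spearman's rho 0.847), *CD101* (0.794) and *GTF2IRD1* (0.791).

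Of the other intermediate filament genes, 5 of 8 were tested and 2 were called, both lower in FS against the rest, where 3.68% of all genes were called lower. *PRPH*, which encodes peripherin of peripheral neurons, stood at 8.96 ± 9.02 CPM (SD, n = 4) in FS, 115 ± 87.3 (n = 6) in PNST and 116 ± 60.8 (n = 6) in PWT, which gave FS a log2 fold change of -3.59 against the rest (SE 0.74, edgeR adjusted p = 0.00471). *NEFH*, the heavy neurofilament gene, was at 1.73 ± 1.84 CPM in FS, 17.8 ± 8.59 in PNST and 12.3 ± 9.86 in PWT, with a log2 fold change of -3.18 (SE 0.82, edgeR adjusted p = 0.0191), not called without the 5 tumors with keratinocyte transcripts (adjusted p = 0.0724). *NES* therefore differed in the direction opposite to the 2 neuronal filament genes. *VIM*, the vimentin gene used by mesenchymal cells, was abundant in all types (means of 2025 CPM in FS, 3011 in PNST and 2918 in PWT) and was not called.

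*NGFR* was below the count filter and was not tested between types, and 1 tumor, an FS, held most of its reads. S1-11 had 112 reads, or 60.4 CPM (95% Poisson interval 49.7 to 72.7), and its 3 sequencing runs gave 41.5 to 51.7 CPM each before TMM scaling. The other 15 tumors had 0 to 9 reads, from 0 to 2.79 CPM (S1-04). In PNST the range was 0.28 to 2.79 CPM with a median of 1.69, in PWT 0 to 1.58 with a median of 0.69, and in the 3 FS other than S1-11 it was 0 to 1.81. By molecular identity 4 of 6 PNST lay above every PWT, on 27 reads in PNST and 7 in PWT, and by histology 1 of 5 did. A count of 0 in a PWT allowed up to 1.62 CPM in S2-08 and 2.22 in S2-11 at 3 reads. The tumor highest in *NGFR* was thus an FS and also the highest in *NES*. *CDH19* stood at 0 to 1.81 CPM in FS, 0 to 1.55 in PNST and 0 to 0.81 in PWT, and 15 of 16 tumors had 3 or fewer reads. With the filter neither gene was tested, and a difference between PNST and the others could not be judged at this depth.

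Of 8 genes of neurotrophins and their other receptors, 3 could be tested. *NTRK2*, the receptor of brain-derived neurotrophic factor, was higher in FS (75.3 ± 69.5 CPM, SD, n = 4) than in PNST (21.6 ± 17.2, n = 6) and PWT (23.5 ± 15.8, n = 6), and the log2 fold change was 1.74 against the rest (SE 0.54, edgeR adjusted p = 0.0429). This call was lost without S1-11 (0.91, edgeR adjusted p = 0.381) and with the prefix in the model (1.64, adjusted p = 0.103). *SORT1*, which encodes sortilin, a partner of p75 in binding proneurotrophins, fell by 2.40 on the log2 scale in FS (SE 0.45, edgeR adjusted p = 0.00233). It stood at 25.2 ± 13.8 CPM in FS, 99.3 ± 21.6 in PNST and 179 ± 67.5 in PWT, and by molecular identity no FS (highest 40.4) reached the lowest PWT (54.6). By histology, *SORT1* was not called in FS against the rest.

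Of 6 cadherin and catenin genes of the neural crest, all 6 were tested. *CDH11*, a mesenchymal cadherin, was higher in FS, at 370 ± 297 CPM (SD, n = 4) against 114 ± 33.4 (n = 6) in PNST and 91.4 ± 51.2 (n = 6) in PWT, and the log2 fold change was 1.86 (SE 0.44, edgeR adjusted p = 0.0103), or 1.19 (adjusted p = 0.123) without S1-11. The other 5 were not called in FS or in PNST against the rest.

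Of 18 genes of the myelin program, which mature Schwann cells switch on, 16 were in the table and 9 had enough counts to be tested. *PMP22*, a myelin gene that fibroblasts also express, was higher in PNST (263 ± 114 CPM, SD, n = 6) than in FS (118 ± 35.4, n = 4). The log2 fold change was 1.15 (SE 0.34, edgeR adjusted p = 0.0459). PWT stood near PNST, at 210 ± 52.8 CPM (n = 6), and *PMP22* was not called in PNST against the rest. Nor was it called against FS without S1-11 (edgeR adjusted p = 0.0945) or without the 5 tumors with keratinocyte transcripts (0.237). *DRP2*, which links the myelin sheath to its basal lamina, was higher in FS (13.7 ± 10.4 CPM, n = 4) than in PNST (1.15 ± 1.21) and PWT (0.75 ± 1.58), and the log2 fold change was 3.65 against the rest (SE 0.68, edgeR adjusted p = 0.00234). Without the 5 tumors *DRP2* had too few counts to be tested. *CNP* was called only in FS against PWT (1.06, SE 0.31, edgeR adjusted p = 0.0317), and not without S1-11 (adjusted p = 0.0626), with the prefix in the model (0.168) or without the 5 tumors (0.276). Of 17 genes of immature, non-myelinating and repair Schwann cells, 8 were tested. *LGI4*, a secreted protein that Schwann cells need in order to myelinate, was higher in FS (34.0 ± 29.9 CPM, n = 4) than in PNST (9.79 ± 2.19) and PWT (5.90 ± 3.48), and the log2 fold change was 2.05 against the rest (SE 0.47, edgeR adjusted p = 0.00851), or 1.58 (adjusted p = 0.131) without the 5 tumors. *OLIG2*, a further factor of glial precursors, had 0 reads in PNST, 0 in FS and 3 in PWT.

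Over the 9 Schwann and neural crest lists together, 102 genes beside the 7 markers were examined and 59 could be tested. In FS against the rest, 14 of the 59 were called (23.7%), 6 higher and 8 lower, beside 9.46% of all genes. In PNST against the rest, 0 of the 59 were called by edgeR, beside 0% of all genes. An unadjusted p-value under 0.05 was reached by 5 of them, beside 15.7% of all genes. DESeq2 called 0 of the 100 with a fold change there, beside 1.54% of all genes with an adjusted p-value. A gene with a fold change but no adjusted p-value could not be called, so these 2 bases are unlike. In PNST against FS, 10 of 59 were called, 8 of them higher in PNST, beside 7.13% of all genes called and 2.98% higher. In PNST against PWT 0 of 59 were called, beside 0.169% of all genes. There 6 lay at an unadjusted p-value under 0.05, beside 19.6% of all genes. DESeq2 called 0 of the 100 with a fold change in PNST against PWT, beside 3.38% of all genes with an adjusted p-value. By histology, 4 of 59 were called in FS (*DRP2*, *ERBB2* and *BASP1* higher, *NEFH* lower), beside 1.33% of all genes. In PNST by histology 0 were called, with 3 at an unadjusted p-value under 0.05, beside 0% and 7.96% of all genes. DESeq2 called 0 of the 100 with a fold change in PNST by histology, beside 0.0685% of all genes with an adjusted p-value. Without S1-11, 10 of 58 were still called in FS against the rest, and all 10 were among the 14, leaving out *NTRK2*, *STMN2*, *DPYSL3* and *CDH11*, beside 5.98% of all genes in that fit. Without the 5 tumors with keratinocyte transcripts, which leaves S1-11 and S2-06 as the only FS, 10 of 51 were called. Of these, 8 were among the 14, beside 7.34% of all genes called. The 6 not called then were *DRP2*, *LGI4*, *NEFH*, *STMN2*, *DPYSL3* and *TUBB3*.

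**Figure D5:**
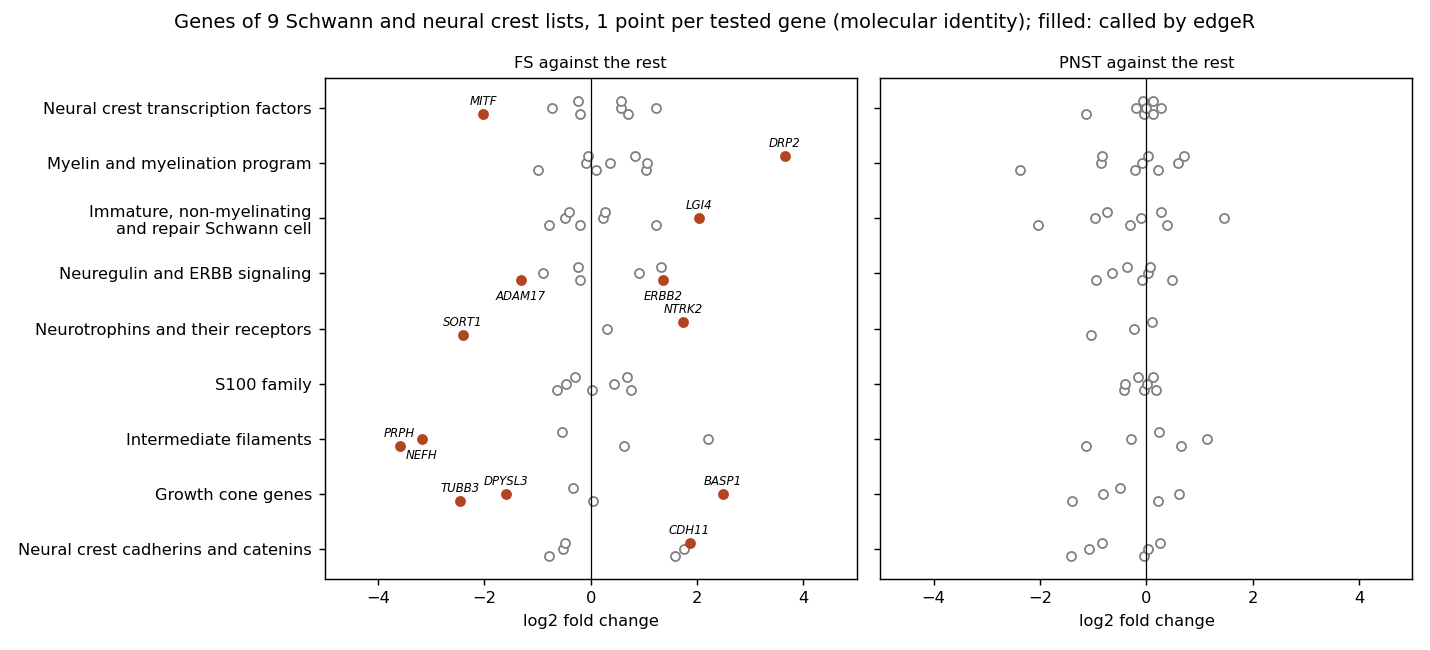
Log2 fold changes (x axis) of the tested genes of 9 Schwann and neural crest lists (rows, 1 point a gene) in FS against the rest (left) and PNST against the rest (right), by molecular identity, with called genes filled and named. *STMN2*, with 0 reads in FS, is not drawn. Called genes lie on both sides of 0 for FS, and none is called for PNST.

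Markers of other cell types were read in the same tumors. In FS against the rest, 9 of 43 tested cell type markers were called, 7 higher and 2 lower, beside 9.46% of all genes (5.78% higher and 3.68% lower). They were the fibroblast genes *COL1A1*, *COL3A1* and *LUM* (3 of 6 tested) and the smooth muscle genes *ACTA2* and *CNN1* (2 of 8), all higher, the perineurial genes *SLC2A1* (higher) and *CLDN1* (lower) of 2 tested, the neuronal gene *SYP* (lower) of 3, and the muscle gene *MYH7* (higher), the 1 of its list tested. With edgeR on all tumors, no gene was called for endothelial cells (5 tested), adipocytes (4), keratinocytes (6), melanocytes (1), macrophages (4) or T cells (3). DESeq2 called the endothelial gene *TEK* lower in FS (-1.67, adjusted p = 0.0261). Without the 5 tumors edgeR called the T cell gene *CD5* lower (-1.67, adjusted p = 0.0259). The fibroblast list went both ways: DESeq2 called its gene *DCN* lower in FS, and edgeR called *PDGFRA* higher in PNST than in FS. Without S1-11, 1 of 41 was called in FS against the rest, *SLC2A1*, beside 5.98% of all genes in that fit. The summed level of 6 neuronal genes was 17.7 to 50.7 CPM in PNST (median 37.3), 4.65 to 16.2 in FS (median 5.69) and 5.51 to 36.7 in PWT (median 17.2). It was highest in S1-09 (50.7), the tumor with the highest *S100B* and *GAP43*, followed by S1-10 (50.2), and the part of neuronal transcripts in these levels was not tested. In PNST against the rest, 0 of 43 were called by edgeR, beside 0% of all genes. An unadjusted edgeR p-value under 0.05 was reached by 5 of them, beside 15.7% of all genes. DESeq2 called 0 of the 58 with a fold change, beside 1.54% of all genes with an adjusted p-value.

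The 5 tested markers did not rise and fall together over the tumors. Among the 10 pairs, *ERBB3* and *GAP43* ran opposite to each other, with Spearman's rho of -0.682 (permutation p = 0.00465, adjusted 0.0465, n = 16) and Pearson's r of -0.591 (permutation p = 0.0132, adjusted 0.132). Without S2-06 and S2-09, the tumors farthest from the median of *ERBB3*, r was -0.544 and rho -0.640 (adjusted permutation p = 0.159). Within S1 tumors rho was -0.717 (n = 9, adjusted permutation p = 0.369) and within S2 tumors -0.536 (n = 7, adjusted permutation p = 0.756). *S100B* and *GAP43* gave r = 0.510 (permutation p = 0.0470, adjusted 0.158) and rho = 0.232 (permutation p = 0.386, adjusted 0.781), and without S1-09 and S1-12 r was -0.070. *S100B* and *SOX10* gave r = -0.084 and rho = -0.141 (permutation p = 0.756 and 0.599, adjusted 0.840 and 0.856). The genes most like *S100B* over the 16 tumors were *LOC106558729* (rho 0.838), *ACCS* (0.824) and *ARHGEF26* (0.797), those most like *SOX10* were *ABL1* (0.818), *PXDNL* (0.791) and *OSBPL2* (0.788), and those most like *GAP43* were *PLOD2* (0.806) and *ARMCX1* (0.782). They were picked as the highest of all tested genes and are a description only.

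The prefix of the tumor name, which may or may not mark a sequencing group, was unevenly spread: S1 stood before 3 of 4 FS, 5 of 6 PNST and 1 of 6 PWT. Within the S1 tumors, *S100B* stood at a median of 5.17 CPM in 5 PNST and 0.35 in 3 FS, and *NES* at 22.3 in PNST and 99.3 in FS. When the edgeR model also held the prefix, *NES* in FS against the rest kept its call (log2 fold change 1.69, SE 0.43, adjusted p = 0.0178), while the histology comparison did not (1.52, SE 0.40, adjusted p = 0.0682). The log2 fold change of *S100B* in PNST against the rest was then 2.94 (SE 0.92, edgeR adjusted p = 0.284). S2 holds 1 FS and 1 PNST by molecular identity, so those types could not be compared within it.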

How the data were processed

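RNA from 16 FFPE canine tumors was sequenced on an Ion Proton after ribosomal RNA depletion. Per the study's methods, the authors aligned reads to ROS-canfam-01 with STAR2 and deposited raw read counts per gene from htseq-count. Software versions and the strand setting are not given in the sources used here, so reads of overlapping or antisense genes cannot be told apart. S1 tumors have 3 runs and S2 tumors 1, and runs were summed, giving 1 sample a tumor. The prefix is only part of the name and may mark a sequencing group. S1-04 and S1-05 have identical label entries and were counted as 2 tumors, so p-values measure the spread between these samples, some of which may share a dog.

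Counts were scaled by TMM and tested with edgeR 4.0.16 (quasi-likelihood test, R 4.3.3) over the 15408 genes that reached 10 counts in 4 tumors or more. Models had 2 groups (a type against the rest) or 3 groups (pairs of types). DESeq2 1.42.0, RLE factors, no filter, the prefix, leaving out tumors and summing S1-04 with S1-05 were alternatives. Intervals are exact Poisson, at 95%, and cover counting error only. Correlations used log2(CPM + 1) and 100000 permutations, two-sided. The fits were tested on simulated data.

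The markers and the 20 gene lists (160 genes, 158 in the table) were chosen with earlier results of these data known. Named genes were the 7 markers, list genes called in a comparison (at most 4 a list and comparison), defining markers of a cell type described, and the 3 genes most like each tested marker, of which 1 is not reported here. *FOXD3*, *NRG1*, *OLIG2*, *VIM*, *S100A8*, *S100A9*, *TEK*, *DCN* and *CD5* lie outside this rule and were named after their values were seen. Sequences and coordinates of the genes were not used here.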

Additional observations from a re-analysis of the deposited data

Results flagged for a closer look

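A tumor was set apart when its gap to the nearest other tumor of its group, as a share of the group's range, passed Dixon's 95% critical value, and 42 groups (7 markers, 3 types, 2 groupings) were examined. For normally distributed levels, chance sets apart about 1 in 20 such groups, and 7 were. CPM of genes with few reads are not so distributed, and the 2 groupings share most tumors. The count of 7 therefore cannot be set against that rate. S1-09 stood apart for *S100B* among the PNST by both groupings, at 75.5 CPM with the others at 1.44 to 21.0 by molecular identity. It also stood apart for *GAP43* among the PNST by histology, at 157 CPM with the others at 5.89 to 14.9. S1-11 stood apart for *NGFR* among the FS by both groupings, at 60.4 CPM with the others at 0 to 1.81. S2-06 stood apart for *S100B* among the 4 FS by molecular identity, at 9.76 CPM with the others at 0 to 1.62. S2-04 stood apart for *CDH19* among the PWT by molecular identity, at 0 with the others at 0.54 to 0.81 CPM, a step of 1 or 2 reads in each tumor.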

How the results depend on the processing

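The number of markers called stayed at 0 for PNST and PWT against the rest, by both groupings, and for PNST against PWT under every alternative run. The share of all genes called was also low, and highest with DESeq2. By molecular identity it reached 1.54% (PNST), 5.02% (PWT) and 3.38% (PNST against PWT), and by histology 0.0685% (PNST) and 1.59% (PWT). The edgeR fits of PNST against the rest called at most 0.0196% of all genes, so 0 markers there says nothing particular about the markers. For FS against the rest by molecular identity, the count of 1 (*NES*) became 2 without a filter on low counts, where *NGFR* was called as well, and 0 without that filter and without S1-11. With the filter, leaving out each tumor in turn gave 0 (without S1-11) to 1. By histology, the FS count became 0 with the prefix in the model (1.33% of all genes called) and with S1-04 and S1-05 summed (1.1%). It was also 0 in S2 tumors alone and without the 5 tumors with keratinocyte transcripts, where no gene was called (0%). Without each tumor in turn it was 0 to 1, with 0 in 14 of 16. For PNST against FS it became 0 in S1 tumors alone, with S1-04 and S1-05 summed and without S1-10 and S2-08, and 0 to 1 without each tumor (0 in 5 of 16). For FS against PWT it became 2 without the filter, 0 with the prefix, without S1-10 and S2-08, and without the filter and S1-11, and 0 to 1 without each tumor (0 in 8 of 16). *NES* kept its direction in all of these, and its adjusted edgeR or DESeq2 p in FS against the rest by molecular identity ranged from 0.00322 to 0.294. The count of correlated pairs, 1, became 0 without the 2 farthest tumors, without S1-09, in S1 tumors alone and in S2 tumors alone.

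Among the 5 markers that passed the filter, changes of sign were seen for log2 fold changes that were not called. With the prefix, *ERBB3* had -0.12 (FS against the rest), -0.11 (PNST), 0.35 (PWT), -0.022 (FS, histology), -0.35 (PNST against PWT) and -0.37 (FS against PWT), and *SOX10* 0.11 (PWT, histology). In S1 tumors alone, *SOX10* had -0.14 (PNST), 0.34 (FS, histology), -0.20 (PNST, histology) and -0.29 (PNST against FS), and *ERBB3* -0.089 (PNST) and -0.21 (PNST against FS). In S2 tumors alone, *ERBB3* had 0.86 (PWT), -0.50 (FS, histology) and 0.53 (PWT, histology), and *GAP43* 0.38 (FS, histology). In PNST against FS, *SOX10* had -0.030 with DESeq2 and -0.027 with RLE, and *ERBB3* -0.026, -0.021 and, with S1-04 and S1-05 summed, -0.23. Without the 5 tumors with keratinocyte transcripts, *ERBB3* had -0.078 (FS), *GAP43* -0.042 (PWT) and *S100B* 0.23 (FS against PWT). Without each tumor in turn, *ERBB3* ranged from -0.083 to 0.58 (FS), -0.18 to 0.36 (FS, histology) and -0.34 to 0.33 (PNST against FS), *SOX10* from -0.11 to 0.17 (FS, histology) and -0.28 to 0.12 (PNST against FS), *GAP43* from -0.61 to 0.70 (PNST), -0.15 to 0.94 (PWT), -1.74 to 0.38 (PNST, histology), -0.076 to 1.03 (PWT, histology) and -0.93 to 0.48 (PNST against PWT), and *S100B* from -2.41 to 0.043 (FS against PWT). The alternatives without 5 tumors and without S1-11 and the filter were chosen after seeing the data. The cause of these changes was not tested.

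No paired analysis was possible because the labels carry no replicate number shared between groups, and the numbers used for tumors follow only the order of the records. *NGFR* without the filter had a log2 fold change of 3.59 (edgeR adjusted p = 0.0101) in FS against the rest and 4.43 (adjusted p = 0.0147) against PWT, and without S1-11 of -1.46 (adjusted p = 0.592) and -0.64 (adjusted p = 0.863). *S100B* in S1 or S2 tumors alone, and *SOX10* in S2 tumors alone, without the 5 tumors, without S1-10 and S2-08, and without each of S1-02, S1-03, S1-09 and S1-10, fell below the filter, and with 1 FS and 1 PNST these types could not be fitted in S2 alone. Depth limits *SOX10*, *NGFR* and *CDH19* most, since a single read is 0.28 to 1.81 CPM.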
